A study of Mus musculus with 44 samples.

Results

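The regions described here are 2618 distal stretches of open chromatin that were more accessible in both GTS medulloblastoma sources, GTS1 and GTS2, than in the GTML3 line under DMSO. They were chosen by their measured accessibility in an ATAC-seq table of 88981 regions: the nearer of the 2 named gene starts lay more than 1000 bases away, the mean over all 12 libraries was at least 5 CPM (counts scaled to the total of each library in the listed regions), and the GTS1 mean and the GTS2 mean were each at least 2 times the GTML3 DMSO mean. Of 75536 distal regions, 24394 passed the CPM minimum, and the 2618 made up 10.73% of those. Without the CPM minimum 13530 distal regions passed both folds, so 19.3% of them were kept and the other 10912 are not described. Because the rule used the GTS1, GTS2 and GTML3 DMSO libraries, differences among those 3 groups are given as descriptions with no test.

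The groups are mouse medulloblastoma samples: GTS1 and GTS2, labelled as GTS tumor with no treatment; preGTS1 under DOX and under DMSO; and the GTML3 line under DOX and under DMSO, each with 2 ATAC libraries. DMSO is the vehicle and DOX is doxycycline; dose and time are not in the labels used here. GTML mice are known as a MYCN model in which the promoter of Slc1a2 (Glt1) drives a transactivator that doxycycline blocks, while the alleles of GTS and preGTS1, strain and age are not given in the labels. A second ATAC table holds 2 GFP and 2 nonGFP libraries from GTML tumor. RNA was measured in 6 GTS and 8 GTML tumors and in 3 libraries each of preGTS1 and GTML3 under DOX and DMSO. For these treated-line RNA samples the description field names the next sample of the list, so the groups follow the titles, which match the column names of the table. GTS1, GTS2, preGTS1 and GTML3 are labelled as 1 source each, and no label says that their libraries came from separate cultures or animals, so p-values from ATAC and line RNA compare libraries of these sources, not conditions in general.

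ATAC-seq reads come from DNA that a transposase can reach. Distal open regions often hold enhancers, where transcription factors bind and act on promoters at a distance, and the gene with the nearest start is only a candidate target. SOX9, whose cells the study follows, is a transcription factor of glial progenitors and astrocytes; AP-1 dimers of FOS and JUN proteins are known to bind many distal elements. The deposited coordinates fit mouse build mm9; no genome of that build was used, so no region sequence and no exon, intron or UTR assignment is given.

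Depth differed between the groups. In M reads within the listed regions, the GTS1 libraries held 3.997 and 2.085, the GTS2 libraries 1.185 and 1.658, the preGTS1 libraries between 5.848 and 7.773, the GTML3 DOX libraries 0.969 and 0.827 and the GTML3 DMSO libraries 1.748 and 1.671. Both libraries of a group differed by 1.849 to 2.056 times the counting noise per region. Between treated-line RNA libraries of a group it was 4.61 to 83.41 times the counting noise per gene. Whether the ATAC libraries of a group are technical copies was not tested. Reads within 1000 bases of a start made up 48.7% and 49% in GTS1, 55.8% and 55.7% in GTS2, between 43.2% and 44.4% in preGTS1 and between 54.5% and 54.8% in GTML3. Among marker genes of other cells, none of 14 microglia and macrophage genes had a region within 1000 bases of its start in this table, and the endothelial list summed to 35.2 CPM in GTS1, 70.4 CPM in GTS2 and 20.5 CPM in GTML3 DMSO over 3 start regions. The oligodendrocyte list summed to 30.4 CPM in GTS1, 132 CPM in GTS2 and 14.4 CPM in GTML3 DMSO over 5 start regions, and among the genes with no start region were Sox10, Mbp, Mag, Mog and Pdgfra. In GTS1, GTS2 and GTML3 DMSO the mural and fibroblast list summed to 18.65, 36.5 and 5.88 CPM over 5 start regions. In the same order the ependymal list had 32.7, 42.7 and 17.2 CPM over 2, and the erythroid list 11.9, 6.935 and 2.315 CPM over 1. The lymphocyte list had 0.605, 1.33 and 1.2 CPM over 1. The part of such cells in the regions described here was not tested.

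The median CPM of the 2618 regions was 12.2 in GTS1, 18 in GTS2, 3.37 in preGTS1 DOX, 4.28 in preGTS1 DMSO, 2.06 in GTML3 DOX and 1.18 in GTML3 DMSO. The regions took between 8.2% and 9.43% of reads in the GTS libraries and 1.38% to 1.39% in the GTML3 DMSO libraries. A large part of these shares is 1 region at the multi-copy ribosomal RNA gene Rn45s, described below. It alone held 35622 and 38755 CPM in GTS1, 13825 and 13809 CPM in GTS2 and 6633 and 6702 CPM in GTML3 DMSO. In GTML3 DMSO 299 regions had no read and 1135 had up to 3, and 3 reads over both libraries equal 0.877 CPM. In 5 regions GTS1 had no read and in 17 GTS2 had none, so there the rule was met by a 0 in GTML3 DMSO alone. In 2188 regions (83.6%) both sources were at least 2 times the larger of the GTML3 DMSO level and that floor, and for these the medians were 14.3 CPM in GTS1, 17.2 CPM in GTS2, 4.01 CPM in preGTS1 DOX, 5.03 CPM in preGTS1 DMSO, 2.24 CPM in GTML3 DOX and 1.5 CPM in GTML3 DMSO.

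**Figure D1:**
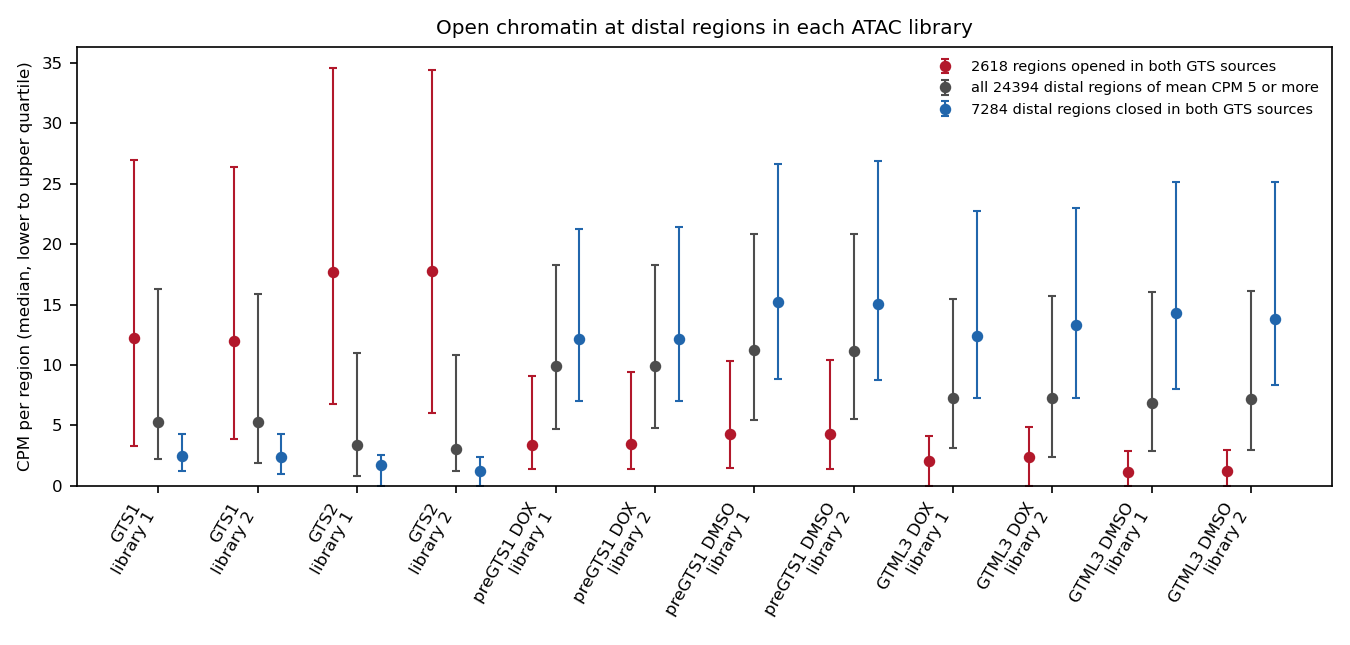
Points are the median CPM per region in each of 12 ATAC libraries and bars span the lower to the upper quartile, for the 2618 regions opened in both GTS sources (red), all 24394 distal regions of mean CPM 5 or more (grey) and the 7284 distal regions closed in both (blue). The red medians are highest in the GTS libraries, between 3.34 and 4.29 CPM in preGTS1 and between 1.14 and 2.42 CPM in GTML3; the GTS and GTML3 DMSO levels follow from the rule.

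At the threshold, the Creg2 region just inside the rule had 6.4 CPM in GTS1, 83.8 CPM in GTS2 and 3.2 CPM in GTML3 DMSO, and the U2surp region just outside it had 9.8 CPM in GTS1, 58.4 CPM in GTS2 and 4.9 CPM in GTML3 DMSO. The Ywhaz region (inside) had 29.8, 2.29 and 1.14 CPM in GTS1, GTS2 and GTML3 DMSO, and the Fam98a region (outside) had 2.31, 34 and 1.16 CPM in the same order. The smaller source decides at this edge, and the larger one can be far above it.

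In most regions the GTS sources were unequal. GTS1 was at least 2 times GTS2 in 757 regions (28.9%), GTS2 was at least 2 times GTS1 in 973 (37.2%), and they lay within 2 times of each other in 888 (33.9%). The median was 28.3 CPM in GTS1 and 4.53 CPM in GTS2 for the first class, 2.94 and 34.9 CPM for the second, and 15 and 14.6 CPM for the third. The preGTS1 DMSO median was 4.89 CPM in the GTS1-weighted class, 1.38 CPM in the GTS2-weighted class and 8.31 CPM in the balanced class.

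The strongest shared openings are those with the largest ratio of the weaker GTS source to GTML3 DMSO, on CPM + 1, with at most 2 per gene. Among the 20 largest, the weaker GTS source ranged over 17.1 to 79.9 CPM, and GTML3 DMSO did not exceed 2.64 CPM. The one with the highest weaker source lay 14036 bases from the start of Ptprs, a receptor-type tyrosine phosphatase of neurons (chr17:56601329-56602406), with 90.1 and 78.7 CPM in GTS1, 75.9 and 83.9 in GTS2, 34 and 42.1 in preGTS1 DOX, 34.6 and 25.5 in preGTS1 DMSO, 8.26 and 6.04 in GTML3 DOX and 2.29 and 2.99 in GTML3 DMSO. Snx20, a sorting nexin, had a region 8380 bases away (chr8:91151035-91152259) with 59.5 and 67.2 CPM in GTS1 and 86.9 and 75.4 in GTS2. preGTS1 had 23.9 and 25 CPM under DOX and 26.8 and 21.7 under DMSO, and GTML3 had 4.13 and 2.42 under DOX and 1.72 and 1.8 under DMSO. Both regions were high in all GTS libraries, intermediate in preGTS1 and low in GTML3, with no overlap among those levels.

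Ppard, a lipid-sensing nuclear receptor, had a region 8531 bases from its start (chr17:28360778-28361556) with 83.3 and 80.1 CPM in GTS1, 48.1 and 37.4 in GTS2, 17.2 and 20.7 in preGTS1 DOX, 24.7 and 25.6 in preGTS1 DMSO, 2.06 and 4.83 in GTML3 DOX and 0.572 and 1.8 in GTML3 DMSO. Ltc4s, which encodes leukotriene C4 synthase, had one 1725 bases away (chr11:50049847-50050772) with 31 and 17.3 CPM in GTS1, 100.4 and 94.7 in GTS2, 33.9 and 35.4 in preGTS1 DOX, 36.5 and 38.6 in preGTS1 DMSO, 4.13 and 4.83 in GTML3 DOX and 0 and 0.599 in GTML3 DMSO. In the Ltc4s region preGTS1 lay above both GTS1 libraries. Abr had a region 56933 bases away (chr11:76307228-76308253) with no read in GTML3 DMSO, which puts GTS1 at least 20.9-fold and GTS2 at least 19.7-fold higher than the floor of 3 reads; preGTS1 DMSO held 11.7 and 12.5 CPM there.

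The other pattern among the 20 was an opening in GTS that preGTS1 did not share. Wwc1, which encodes the Hippo-pathway scaffold KIBRA, had a region 263411 bases away (chr11:36056974-36057907) with 51.3 and 42.2 CPM in GTS1, 21.1 and 39.8 in GTS2, 0.912 and 1.88 in preGTS1 DOX, 2.51 and 1.29 in preGTS1 DMSO, 2.06 and 1.21 in GTML3 DOX and 0 and 0 in GTML3 DMSO. Cdk5rap2, a centrosome protein, had one 189805 bases away (chr4:69881290-69882038) with 34.5 and 32.1 CPM in GTS1, 59.9 and 73 in GTS2, 1.22 and 1.37 in preGTS1 DOX, 0.592 and 1.16 in preGTS1 DMSO, 1.03 and 0 in GTML3 DOX and 1.14 and 0 in GTML3 DMSO. In both regions preGTS1 and GTML3 levels overlapped. Of the 20 regions, 8 were higher in preGTS1 DOX than in GTML3 DOX in the limma test of those lines, which called 17.3% of all distal regions and 15.3% of all regions higher. In 1 of the 20, the Ltc4s region, preGTS1 DMSO reached the weaker GTS source. The Smim23 region was lower in preGTS1 under DOX than under DMSO (log2 difference -1.59, adjusted p = 0.0222, limma), a call lost without either DMSO library or without DOX library 2.

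The median distance of the 2618 regions to a start was 30.8 kb, against 32.6 kb for all 24394 distal regions, and their median width was 689 bases, against 726 bases. Another of the 2618 regions lay within 10 kb for 14.7% of them. Their share of the distal regions on a chromosome was 16.8% on chromosome 12, 15.4% on chromosome 8 and 15.1% on chromosome 14, and it was lowest on the X chromosome with 5.12%, leaving out Y and unplaced sequence. The median log2 ratio of all distal regions over GTML3 DMSO was also high on chromosome 8 in GTS1 (0.54, against -0.28 over all chromosomes) and on chromosome 12 in GTS1 (0.13) and GTS2 (-0.38, against -0.84). On chromosome 14 it was -0.57 in GTS1, below the median over all chromosomes, and -0.55 in GTS2, and on chromosome 8 it was -0.64 in GTS2. The part of chromosome copy number in these shares was not tested.

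The 2618 regions had 2033 nearest genes. Of these genes 390 had at least 2 regions, 116 at least 3 and 23 at least 5, and 678 also had a distal region closed in both sources. Pard3, a scaffold of the PAR cell-polarity complex, had most with 8. Eya1, a phosphatase and transcriptional coactivator of developing sense organs and kidney, and Klf12, a Kruppel-like transcriptional repressor, had 7 each. With 6 each followed Clmn, Ctif (a translation initiation factor of the cap-binding complex), the transcript E130114P18Rik, Fos (a subunit of AP-1), Mbnl1 (a splicing regulator), Tcf4 (an E-protein of the basic helix-loop-helix class) and Tnc (tenascin-C, an extracellular matrix glycoprotein). These counts also depend on how many distal regions a gene has: E130114P18Rik had 27, Tcf4 21 and Pard3 16, whereas Fos had 7 and Ctif 8.

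**Figure D2:**
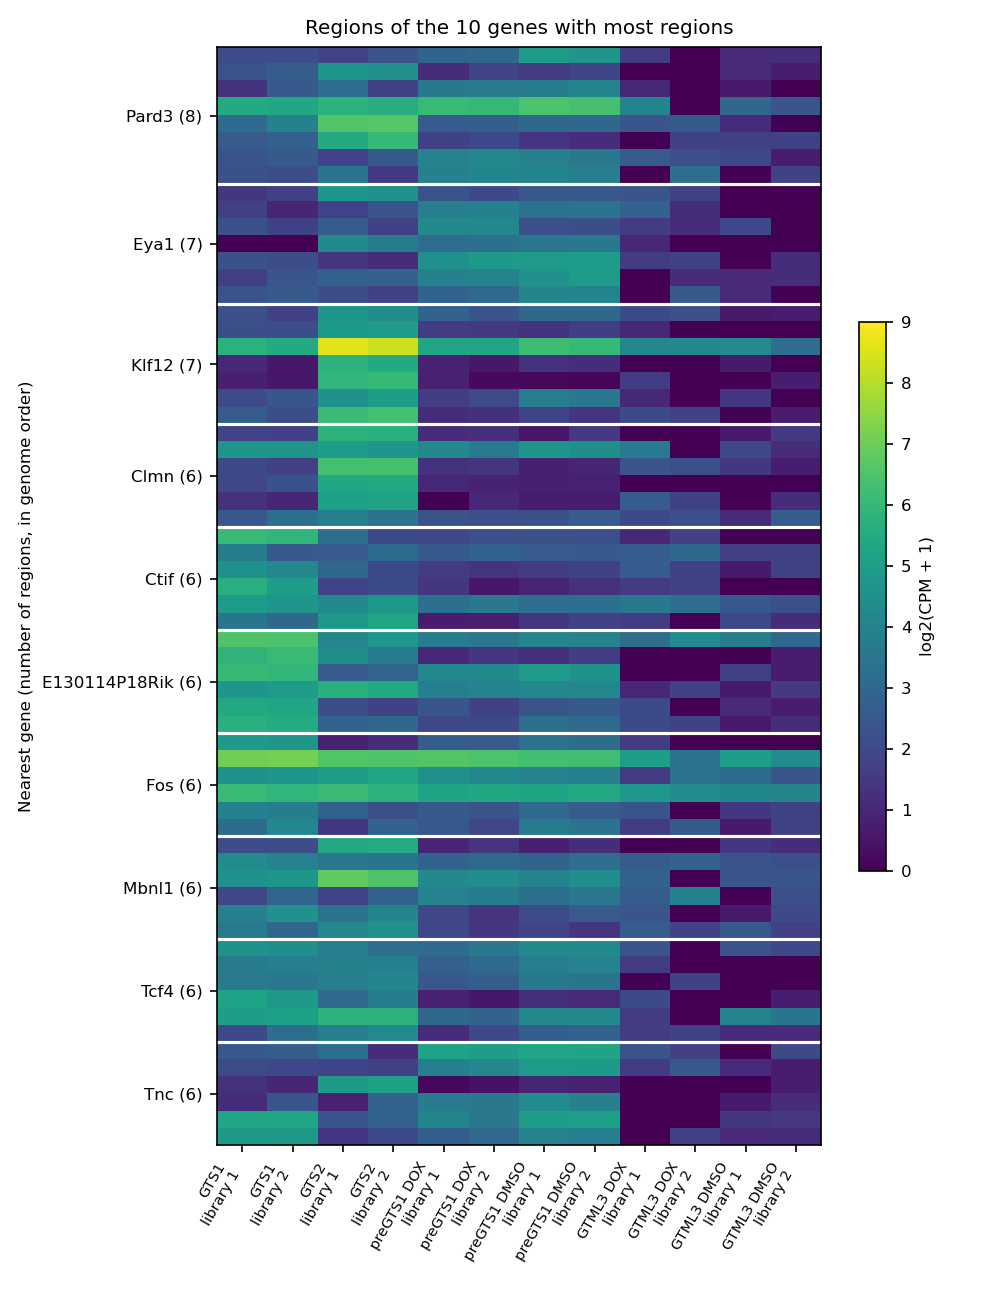
Each row is 1 of the 64 regions whose nearest gene is among the 10 genes with most regions, each column is an ATAC library, and colour is log2(CPM + 1). The 7 Klf12 rows are brightest in GTS2, 5 of the 6 E130114P18Rik rows are brightest in GTS1, and several Pard3, Eya1 and Tnc rows are brightest in preGTS1.

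The Fos regions lay between 1632 and 36517 bases from its start. The largest (chr12:86795828-86796964, 18443 bases away) had 130.1 and 139 CPM in GTS1, 92.8 and 91.7 in GTS2, 95.3 and 86.9 in preGTS1 DOX, 75.7 and 74.1 in preGTS1 DMSO, 31 and 9.67 in GTML3 DOX and 30.9 and 19.1 in GTML3 DMSO. A second (chr12:86826637-86827474, 12216 bases away) had 65.3 and 59 CPM in GTS1, 70.0 and 55.5 in GTS2, 37.2 and 41.2 in preGTS1 DOX, 36.8 and 42.2 in preGTS1 DMSO, 26.8 and 19.3 in GTML3 DOX and 16.6 and 16.2 in GTML3 DMSO. In both, GTS1, GTS2 and preGTS1 libraries were all above the 2 GTML3 DMSO libraries. Of the 6 Fos regions, 4 were higher in preGTS1 DOX than in GTML3 DOX; for the region 18443 bases away limma gave log2 difference 2.32 (SE 0.327), adjusted p = 0.000143.

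Around Pard3, preGTS1 DMSO exceeded both GTS sources in 5 of 8 regions. The largest region (chr8:129962242-129963802, 139511 bases away) had 44.8 and 41.2 CPM in GTS1 and 54.8 and 47.7 in GTS2. preGTS1 had 65.8 and 62.4 CPM under DOX and 87.2 and 81 under DMSO, and GTML3 had 15.5 and 0 under DOX and 6.87 and 4.19 under DMSO. The region 141500 bases away (chr8:129964588-129965435) instead had 7.76 and 14.4 CPM in GTS1 and 95.3 and 98.9 in GTS2. preGTS1 had 5.17 and 5.64 CPM under DOX and 7.25 and 6.82 under DMSO, and GTML3 had 4.13 and 4.83 under DOX and 1.14 and 0 under DMSO. Only the GTS2 libraries were high there. Neighbouring elements of a gene were open in different sources. Of the 8 Pard3 regions 6 were higher in preGTS1 DOX than in GTML3 DOX.

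At Eya1 preGTS1 was often above the GTS sources. In all 7 regions preGTS1 DMSO reached the weaker GTS source, and in 4 it exceeded both. The region 119171 bases away (chr1:14418987-14419916) had 3.75 and 3.36 CPM in GTS1 and 1.69 and 1.21 in GTS2. preGTS1 had 21.7 and 27.7 CPM under DOX and 30.2 and 30.8 under DMSO, and GTML3 had 2.06 and 2.42 under DOX and 0 and 1.2 under DMSO. GTS levels here were a few reads per library, and preGTS1 carried most of the signal. Without the preGTS1 libraries this region had a mean below 5 CPM. It met the CPM minimum only through preGTS1, so its high preGTS1 level follows from the choice. By contrast the region 128123 bases away (chr1:14171947-14172368) had 1.75 and 2.4 CPM in GTS1 and 25.3 and 21.7 in GTS2. preGTS1 had 4.1 and 3.08 CPM under DOX and 4.73 and 4.37 under DMSO, and GTML3 had 4.13 and 2.42 under DOX and 0 and 0 under DMSO. It was high in GTS2 only. Only 4 of the 7 Eya1 regions cleared the 3-read floor of GTML3 DMSO in both GTS sources. How many of the 7 met the CPM minimum only through preGTS1 was not counted.

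At Tnc preGTS1 DMSO exceeded both GTS sources in 3 of 6 regions. The region 53009 bases away (chr4:63654398-63655525) had 4.75 and 5.28 CPM in GTS1 and 8.44 and 1.21 in GTS2. preGTS1 had 36.6 and 31.5 CPM under DOX and 39 and 37.6 under DMSO, and GTML3 had 4.13 and 2.42 under DOX and 0 and 2.99 under DMSO. All preGTS1 libraries were above every GTS and GTML3 library. Without the preGTS1 libraries this region had a mean below 5 CPM. It met the CPM minimum only through preGTS1, so its high preGTS1 level follows from the choice. The region 95953 bases away (chr4:63803326-63804520) had 38.3 and 38.4 CPM in GTS1 and 4.22 and 6.03 in GTS2. preGTS1 had 16.4 and 11.3 CPM under DOX and 31.9 and 32.8 under DMSO, and GTML3 had 0 and 0 under DOX and 1.72 and 1.8 under DMSO. GTS1 and preGTS1 were high. Of 6 Tnc regions, 5 were higher in preGTS1 DOX than in GTML3 DOX, for the region 95953 bases away with log2 difference 3.87 (SE 0.387), adjusted p = 5.07e-06. How many of these 5 met the CPM minimum only through preGTS1 was not counted.

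Klf12 and Clmn leaned to GTS2. All 7 Klf12 regions and 4 of the 6 Clmn regions were at least 2 times higher in GTS2 than in GTS1. The region 135472 bases from Klf12 (chr14:100683512-100685462) had 52.3 and 44.1 CPM in GTS1 and 372 and 316 in GTS2. preGTS1 had 37.7 and 39.3 CPM under DOX and 72.6 and 64.8 under DMSO, and GTML3 had 17.6 and 18.1 under DOX and 19.4 and 8.38 under DMSO. The region 17776 bases from Clmn (chr12:106085158-106085862) had 3 and 2.4 CPM in GTS1 and 80.1 and 83.3 in GTS2. preGTS1 had 1.52 and 1.54 CPM under DOX and 0.739 and 0.9 under DMSO, and GTML3 had 4.13 and 3.63 under DOX and 1.72 and 0.599 under DMSO. It was high in GTS2 alone. Only 1 Klf12 region and none of the Clmn regions were higher in preGTS1 DOX than in GTML3 DOX, and 1 Clmn region, 35588 bases away, was lower (log2 difference -1.69 (SE 0.555), adjusted p = 0.0384).

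E130114P18Rik leaned to GTS1, which was at least 2 times GTS2 in 5 of 6 regions. At Ctif GTS1 was at least 2 times GTS2 in 3 of 6 regions, and GTS2 at least 2 times GTS1 in 1. The E130114P18Rik region 166890 bases away (chr4:97417562-97418782) had 64.5 and 61.4 CPM in GTS1 and 5.06 and 6.64 in GTS2. preGTS1 had 17.6 and 19 CPM under DOX and 30.0 and 23 under DMSO, and GTML3 had 0 and 0 under DOX and 2.29 and 0.599 under DMSO. Here preGTS1 lay between GTS1 and GTS2, and no GTML3 DOX read was found (log2 difference 4.27 (SE 0.41), adjusted p = 3.28e-06 for preGTS1 DOX over GTML3 DOX). Ctif, Mbnl1 and Tcf4 had no single pattern. The Mbnl1 region 26998 bases away (chr3:60331675-60332522) had 22.5 and 26.4 CPM in GTS1 and 109.7 and 88.7 in GTS2. preGTS1 had 18.5 and 20.2 CPM under DOX and 15.4 and 20.4 under DMSO, and GTML3 had 6.2 and 0 under DOX and 4 and 4.19 under DMSO. At Tcf4 4 of 6 regions were higher in preGTS1 DOX than in GTML3 DOX.

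preGTS1 under DMSO held part of this opening. Its level reached the weaker GTS source in 899 regions (34.3%), stood at 50% or more of it but below it in 707 (27%), was under 50% of it yet at least 2 times GTML3 DMSO in 311 (11.9%), and was below both marks in 701 (26.8%). Set against GTML3 DMSO, which the rule used, preGTS1 DMSO was at least 2 times higher in 1637 regions (62.5%) and at least 2 times lower in 72, as a description. Among all distal regions 33.3% were at least 2 times higher, and among those that passed the fold in only 1 GTS source 38.2%. The weaker source was reached in 50.2% of GTS1-weighted, 31.4% of balanced and 24.7% of GTS2-weighted regions. Of the 430 regions that did not clear the floor in GTML3 DMSO, 245 were counted as reaching the weaker source, and without them it was 654 of 2188 (29.9%). In 302 regions (11.5%) preGTS1 DMSO lay above both GTS sources. Without the preGTS1 libraries 258 of the 2618 regions had a mean below 5 CPM. Those regions met the CPM minimum only through preGTS1, so a high preGTS1 level there follows from the choice. How many of them are among the 899 or the 302 was not counted.

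**Figure D3:**
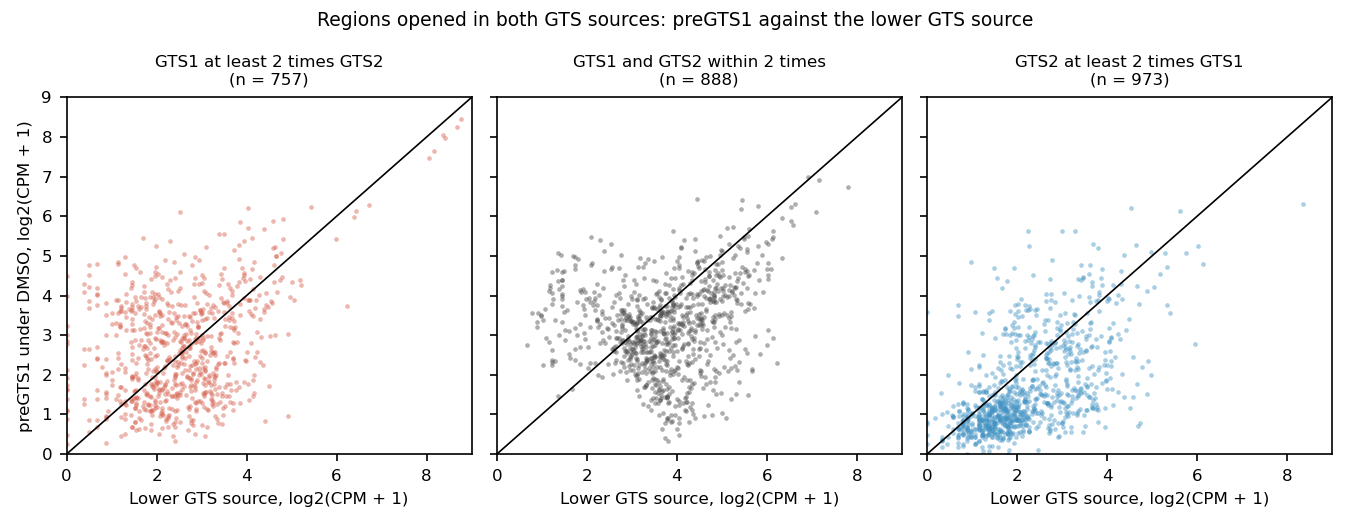
Each point is 1 region, with its mean level in the weaker GTS source on the x axis and in preGTS1 under DMSO on the y axis, both as log2(CPM + 1), split by which GTS source is stronger; the line marks equal levels and 1 region lies outside the axes. Points on or above the line make up 50.2% of the left panel, 31.4% of the middle panel and 24.7% of the right panel.

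The extremes are listed by the ratio of preGTS1 DMSO to the mean of both GTS sources. At the top, the Mxi1 region 20876 bases away (chr19:53405453-53406289) had 1 and 0.959 CPM in GTS1, 1.69 and 4.83 in GTS2, 25.7 and 22.1 in preGTS1 DOX, 28.7 and 26.4 in preGTS1 DMSO, 6.2 and 4.83 in GTML3 DOX and 0 and 0.599 in GTML3 DMSO; MXI1 pairs with MAX and opposes MYC. The Gja1 region 1487 bases away (chr10:56098046-56099139), next to the gene of the astrocyte gap-junction protein connexin 43, had 2.5 and 2.4 CPM in GTS1, 0 and 1.21 in GTS2, 11.4 and 11.8 in preGTS1 DOX, 27.5 and 25.6 in preGTS1 DMSO, 3.1 and 0 in GTML3 DOX and 0 and 0 in GTML3 DMSO. The Avl9 region 6077 bases away (chr6:56670591-56671360) had 5.25 and 3.84 CPM in GTS1 and 5.91 and 0.603 in GTS2. preGTS1 had 44.8 and 37.6 CPM under DOX and 39 and 48.1 under DMSO, and GTML3 had 4.13 and 0 under DOX and 0 and 2.39 under DMSO. All 6 regions at this end, which also lay near Dclk3, St6galnac3 and Sub1, had at most 3.25 CPM in the weaker GTS source. Without the preGTS1 libraries all 6 had a mean below 5 CPM, so they met the CPM minimum only through preGTS1, and its high level there follows from the choice.

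At the other end stood 6 regions that GTS2 held nearly alone, near 2310001H17Rik, Dpp10, Etv1, Mir5130, Serp2 and Trhde. The Etv1 region 67703 bases away (chr12:39573913-39574829), near the gene of an ETS transcription factor, had 2 and 2.4 CPM in GTS1 and 183 and 162 in GTS2. preGTS1 had 2.58 and 0.684 CPM under DOX and 1.63 and 0.772 under DMSO, and GTML3 had 2.06 and 2.42 under DOX and 0.572 and 0 under DMSO. The Dpp10 region 722591 bases away (chr1:125219128-125219962), near the gene of a potassium-channel subunit, had 2.25 and 2.88 CPM in GTS1, 147 and 194 in GTS2, 3.19 and 1.88 in preGTS1 DOX, 0.296 and 0.386 in preGTS1 DMSO, 5.16 and 3.63 in GTML3 DOX and 0 and 1.2 in GTML3 DMSO. GTS1 passed the rule in these regions with at most 2.57 CPM, so the shared opening there rests on few GTS1 reads. None of the 6 differed between preGTS1 DOX and GTML3 DOX past the limma threshold, nor at an unadjusted p below 0.05.

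The DOX libraries of both lines entered the rule only through the overall mean, so preGTS1 DOX was compared with GTML3 DOX by limma on log2(CPM + 1) over all 88981 regions, with a call at a Benjamini-Hochberg adjusted p below 0.05. Of the 2618 regions 710 (27.1%) were higher in preGTS1 DOX and 23 (0.879%) were lower, against 17.3% and 7.48% of all distal regions and 15.3% and 6.21% of all regions. Of 6005 distal regions that passed the fold in only 1 GTS source, 22.1% were higher and 2.76% lower. Much of the higher share was thus also found at regions opened in 1 source. edgeR's quasi-likelihood test with TMM factors, on whole reads recovered from the CPM steps, called 690 (26.4%) higher and 21 (0.802%) lower, against 24.4% and 6.65% of distal regions and 15% and 4.74% of all regions. With each library centred on its median region, limma called 541 higher and 51 lower. By edgeR the higher share was thus near that of all distal regions. The CPM minimum also counted the preGTS1 libraries. Over the 6 GTS and GTML3 DMSO libraries alone, 229 of the 2618 regions had a mean below 5 CPM, and 161 of these were among the 710. With the minimum set over those 6 libraries, a choice made after seeing the data, 3879 regions met the rule, and limma called 611 (15.8%) higher and 34 (0.877%) lower, against 10.8% and 8.27% of 22001 distal regions. In the 2-fold description 1246 regions (47.6%) were at least 2 times higher in preGTS1 DOX, against 28.8% of distal regions. The median log2 difference was 0.70 for the 2618 regions, 0.52 for those opened in only 1 GTS source and 0.30 for all distal regions. In 350 regions GTML3 DOX had no read, of which 137 were called higher. From group means on log2(CPM + 1) the median difference was 0.61, and 0.33 with the 350 regions set at 3 reads. Of the 710 regions, 449 were among those where preGTS1 DMSO reached the weaker GTS source. By balance, 227 of 757 GTS1-weighted, 344 of 888 balanced and 139 of 973 GTS2-weighted regions were higher. The GTML3 DOX libraries were the shallowest, and without preGTS1 DOX library 1 or 2 the higher calls numbered 342 and 345; without GTML3 DOX library 1 or 2 the lower calls numbered 68 and 44.

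Named regions with this difference included Snx20 (8380 bases; log2 difference 2.60 (SE 0.283), adjusted p = 1.2e-05), Ptprs (14036 bases; log2 difference 2.27 (SE 0.254), adjusted p = 1.6e-05) and Ltc4s (1725 bases; log2 difference 2.70 (SE 0.326), adjusted p = 3.18e-05). In each, both preGTS1 DOX libraries exceeded both GTML3 DOX libraries by more than the spread within a pair. Ccnd2, a cyclin of the G1 phase, had a region 1556 bases from its start (chr6:127102344-127102900) with 14 and 13.4 CPM in GTS1, 11 and 6.03 in GTS2, 15.8 and 17.1 in preGTS1 DOX, 28.1 and 22.6 in preGTS1 DMSO, 2.06 and 0 in GTML3 DOX and 1.14 and 0 in GTML3 DMSO (log2 difference 3.32 (SE 0.531), adjusted p = 0.000403). Sema6d, an axon guidance ligand, had one 43325 bases away (chr2:124435395-124436588) with 28.3 and 34 CPM in GTS1, 11.8 and 7.24 in GTS2, 50.1 and 53.9 in preGTS1 DOX, 42.4 and 49.8 in preGTS1 DMSO, 7.23 and 10.9 in GTML3 DOX and 1.14 and 0 in GTML3 DMSO (log2 difference 2.42 (SE 0.373), adjusted p = 0.000298). In both the preGTS1 libraries were above the GTS libraries.

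In preGTS1, 46 of the regions (1.76%) were higher under DOX than under DMSO by the same limma test and 45 (1.72%) were lower, against 2.01% and 4.29% of all distal regions and 2.04% and 1.7% of all regions. The median log2 difference was -0.09 for the 2618 regions, -0.16 for all distal regions and -0.36 for the regions closed in both GTS sources, of which 113 were higher and 464 lower. On the recovered whole reads edgeR with TMM factors called 192 (7.33%) higher and 457 (17.5%) lower, against 11% and 28.6% of all distal regions and 12.6% and 14.4% of all regions; with each library centred on its median region limma called 62 higher and 37 lower. The split of higher against lower calls differed between these scalings and tests. Of the limma calls, 20 of the 46 higher and 2 of the 45 lower were among the 229 regions with a mean below 5 CPM over the 6 GTS and GTML3 DMSO libraries. With the minimum over those 6 libraries, 26 of 3879 regions (0.67%) were higher and 43 (1.11%) lower, against 0.732% and 4.42% of distal regions. Leaving out 1 preGTS1 library left 10 to 11 higher and 0 to 3 lower, with 0 lower without DMSO library 1.

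By state, the regions where preGTS1 DMSO reached the weaker GTS source held 22 higher and 22 lower limma calls among 899, and 107 and 252 edgeR calls. The 701 regions below both marks held 6 and 4 limma calls, and 30 and 47 edgeR calls. Over all distal regions limma called 2.01% higher and 4.29% lower, and edgeR 11% and 28.6%. The states were cut on the preGTS1 DMSO level, and the same libraries are the baseline of the DOX comparison. A high DMSO level favours lower calls, so the counts by state depend on that choice, and how far was not tested. In the 2-fold description, 271 of the 2618 regions were at least 2 times higher under DOX (10.35%, against 9.41% of distal regions) and 471 at least 2 times lower.

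The 6 largest rises under DOX in preGTS1 were at regions that met the CPM minimum only through the preGTS1 DOX libraries. Without those libraries all 6 had a mean below 5 CPM, so a high DOX level beside few GTS reads follows from the choice. The Tmem135 region 133507 bases away (chr7:96353307-96354273) had 1 and 3.36 CPM in GTS1, 1.69 and 4.83 in GTS2, 23.1 and 29.9 in preGTS1 DOX, 1.92 and 2.32 in preGTS1 DMSO, 13.4 and 10.9 in GTML3 DOX and 1.14 and 0 in GTML3 DMSO (log2 difference 3.13 (SE 0.549), adjusted p = 0.00595). The Ezr region 36601 bases away (chr17:6950189-6950867), near the gene of ezrin, which links membranes to actin, had 2 and 0.959 CPM in GTS1, 4.22 and 3.62 in GTS2, 22.3 and 23.3 in preGTS1 DOX, 2.81 and 1.29 in preGTS1 DMSO, 9.29 and 4.83 in GTML3 DOX and 1.14 and 0 in GTML3 DMSO (log2 difference 3.01 (SE 0.528), adjusted p = 0.00595). The Col25a1 region 23107 bases away (chr3:129860322-129860988), near a collagen gene, had 0 and 0.48 CPM in GTS1, 1.69 and 0 in GTS2, 22.8 and 25.1 in preGTS1 DOX, 1.77 and 2.06 in preGTS1 DMSO, 9.29 and 7.25 in GTML3 DOX and 0 and 0 in GTML3 DMSO (log2 difference 3.10 (SE 0.536), adjusted p = 0.00557). GTML3 DOX also exceeded GTML3 DMSO in these 3 regions, in both libraries. The other 3 of the 6 largest rises lay near Smim31, Pxk and Gm12128 (log2 differences 3.02, 2.99 and 2.92). In the 6 regions the weaker GTS source held at most 2.18 CPM.

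The 6 largest falls under DOX were at regions with higher GTS1 levels than those of the 6 largest rises. The Acer3 region 2735 bases away (chr7:105471883-105473023), near an alkaline ceramidase gene, had 54 and 35.5 CPM in GTS1, 92.8 and 82.7 in GTS2, 2.89 and 4.79 in preGTS1 DOX, 22.9 and 25.6 in preGTS1 DMSO, 2.06 and 2.42 in GTML3 DOX and 6.29 and 0.599 in GTML3 DMSO (log2 difference -2.41 (SE 0.504), adjusted p = 0.0162). The Scgb1a1 region 21655 bases away (chr19:9140338-9141244) had 27 and 31.2 CPM in GTS1, 31.2 and 23.5 in GTS2, 3.5 and 1.54 in preGTS1 DOX, 17.3 and 14.8 in preGTS1 DMSO, 2.06 and 4.83 in GTML3 DOX and 10.3 and 9.58 in GTML3 DMSO (log2 difference -2.33 (SE 0.396), adjusted p = 0.00507). In both, preGTS1 DOX fell to the range of the GTML3 libraries or just below it. The Gpc6 region 251475 bases away (chr14:117575666-117576320), near a glypican gene, had 8.26 and 7.67 CPM in GTS1, 24.5 and 32 in GTS2, 0.456 and 0 in preGTS1 DOX, 4.44 and 8.11 in preGTS1 DMSO, 2.06 and 0 in GTML3 DOX and 0 and 1.2 in GTML3 DMSO (log2 difference -2.54 (SE 0.588), adjusted p = 0.0255). The other large falls lay near Fem1al, Gm5535 and Tram1l1 (log2 differences -2.53, -2.52 and -2.22). All 12 of these regions were also called by edgeR, and each lost its limma call in at least 1 alternative, such as leaving out 1 library.

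A single region stood apart by size. The Rn45s region (chr17:39979978-39985748), named after its values were seen, covers the 45S ribosomal RNA gene, whose reads come from many genomic copies. It had 35622 and 38755 CPM in GTS1, 13825 and 13809 CPM in GTS2, 26046 and 26820 CPM in preGTS1 DOX, 11183 and 11080 CPM in preGTS1 DMSO, 12335 and 12160 CPM in GTML3 DOX and 6633 and 6702 CPM in GTML3 DMSO. Its share rose under DOX in preGTS1 (log2 difference 1.25, adjusted p = 2.96e-15, limma), and the DOX libraries were above the DMSO libraries in both lines. Reads of single copies cannot be told apart.

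In GTML3, which the rule used under DMSO, DOX libraries had at least 2 times the DMSO level in 1060 of the 2618 regions (40.5%) and at most 50% of it in 546 (20.9%), against 17.6% and 17.1% of all distal regions. This is a description: the regions were chosen for a low GTML3 DMSO level, and the median GTML3 level was 4 reads under DOX and 4 under DMSO. With 1 library of each group the regions at least 2 times lower numbered 908 to 983.

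The second ATAC table allows the regions to be looked up in libraries that played no part in the rule. GFP and nonGFP are fractions of GTML tumor; the labels do not say what the GFP marks. A region listed there overlapped at least 50% of the shorter one for 1985 of the 2618 regions (75.8%), against 47.6% of all distal regions and 19.1% of the regions closed in both GTS sources. By state the listed share was 59.1% where preGTS1 DMSO reached the weaker GTS source and 84.2% where it was below both marks; by balance it was 48.9% for GTS1-weighted, 79.8% for balanced and 93.1% for GTS2-weighted regions. The matched regions had a median of 15.9 CPM in GFP and 15 CPM in nonGFP, against 11.4 and 10.8 CPM for all matched distal regions. The 2 tables were normalized separately, so no level is compared across them.

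Between the fractions, 133 of the 1985 matched regions (6.7%) were higher in GFP and 37 (1.86%) lower by limma, against 3.66% and 1.59% of all matched distal regions and 2.32% and 1.13% of all regions of that table. The median log2 difference was 0.03, and 0.02 for all matched distal regions. The higher calls were 87 of 906 matched GTS2-weighted regions, 28 of 709 balanced and 18 of 370 GTS1-weighted ones. The GFP median of these classes was 21.5, 15 and 7.37 CPM, and its part in the calls was not tested. Only 30 of the 133 and none of the 37 passed 2-fold. The Sel1l region 63816 bases away (chr12:93151071-93151755), near a gene of endoplasmic-reticulum-associated degradation, had 18.6 and 21.7 CPM in GFP against 3.29 and 4.55 CPM in nonGFP (log2 difference 2.11 (SE 0.178), adjusted p = 1.74e-28); in the first table it had 54 and 62.7 CPM in GTS2, against 3 and 1.92 CPM in GTS1. The Pdlim5 region 73555 bases away (chr3:141981004-141981515) had 15.4 and 13.9 CPM in GFP against 2.81 and 3.81 CPM in nonGFP (log2 difference 1.87 (SE 0.195), adjusted p = 4.52e-18). The Nck2 region 87310 bases away (chr1:43414966-43415604), near an SH2-SH3 adaptor gene, had 8.03 and 10.8 CPM in GFP against 1.45 and 2.94 CPM in nonGFP (log2 difference 1.73 (SE 0.225), adjusted p = 2.86e-11) and was highest in GTS1, with 32.8 and 35.5 CPM.

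Falls in GFP were small. The Fhl4 region 58214 bases away had 5.36 and 5.77 CPM in GFP against 10.5 and 9.76 CPM in nonGFP (log2 difference -0.76 (SE 0.191), adjusted p = 0.00531), and the C230079O03Rik region 16383 bases away had 21.5 and 21.7 CPM in GFP against 34.4 and 35.7 CPM in nonGFP (log2 difference -0.67 (SE 0.111), adjusted p = 7.15e-07). Leaving out 1 library lowered the higher calls to between 58 and 103 and the lower calls to between 4 and 34. The higher calls were 62 without GFP library 1, 58 without nonGFP library 1 and 67 without nonGFP library 2; the lower calls were 20, 4 and 13. edgeR with TMM called 59 lower.

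Promoters of the same genes, read in the same libraries as the rule, are given as a description. Among 1222 start regions of mean CPM 5 or more at genes with an opened distal region, 148 (12.1%) were at least 2 times higher in both GTS sources than in GTML3 DMSO and 51 (4.17%) at least 2 times lower in both. Over all genes these shares were 7.3% and 6.42% of 11193 start regions.

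RNA is another assay and was tested in the treated lines by limma over 15926 genes, of which 1256 were nearest to an opened region. Under DMSO, 652 of the 1256 genes (51.9%) were higher in preGTS1 than in GTML3 and 322 (25.6%) were lower. Of all genes nearest to a distal region 41.7% were higher and 33.2% lower, and of all genes 38.5% and 27.9%. The rule chose regions with low accessibility in GTML3 DMSO, the line and treatment set against preGTS1 here. Its CPM minimum also counted the preGTS1 libraries. How far the RNA shares follow from that choice was not tested. By number of regions, 503 of 1002 genes with 1 region were higher (50.2%), 93 of 169 with 2 (55%) and 56 of 85 with 3 or more (65.9%). The median log2 difference was 0.30, 0.38 and 0.56 in these classes and 0.11 for genes nearest to any distal region. The classes were not set against genes with as many distal regions of any kind, so a trend of region-rich genes in general was not tested. The first GTML3 DOX RNA library differed from the other 2 by 58.95 and 83.41 times the counting noise, against 4.61 between those 2; without it 521 of the 1256 genes were higher and 357 lower under DOX than under DMSO in GTML3. In bulk RNA, fewer cells of a type and less RNA per cell cannot be told apart.

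**Figure D4:**
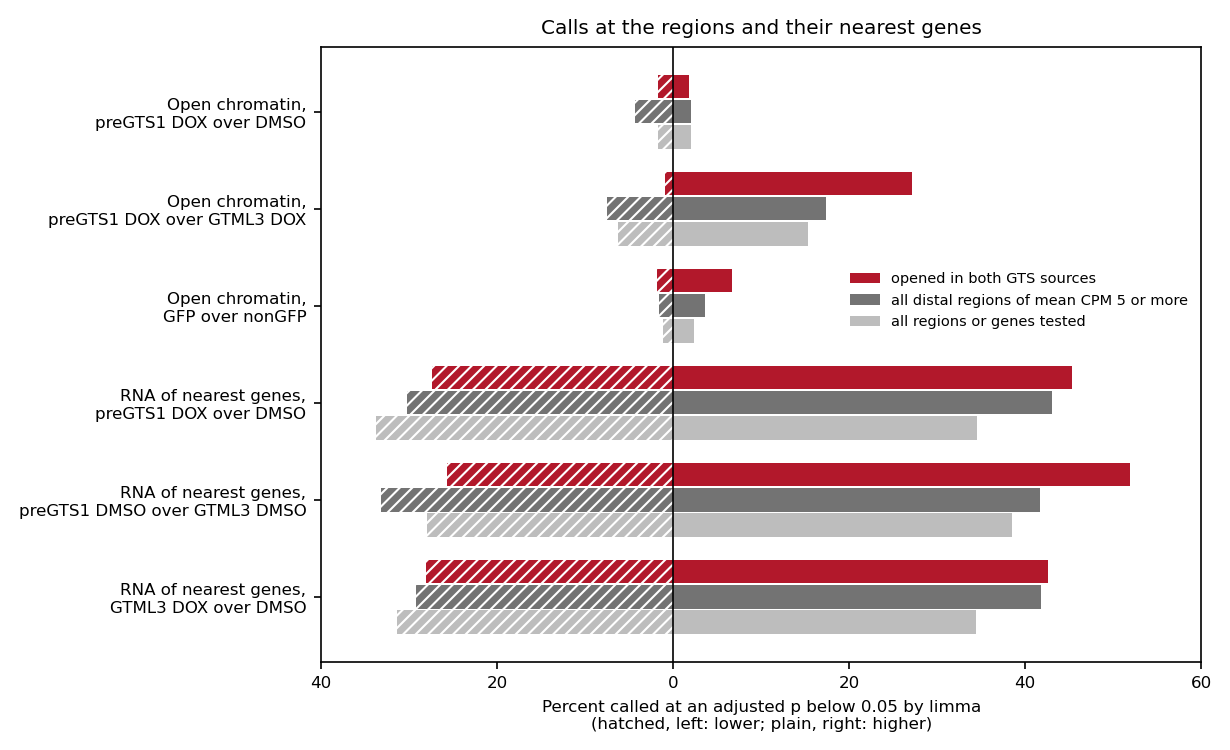
Bars give the percent of regions or nearest genes called higher (right) and lower (left, hatched) by limma at an adjusted p below 0.05, for the 2618 regions (red), all distal regions of mean CPM 5 or more (dark grey) and all features tested (light grey). The red bar is longest on the right in the comparison of preGTS1 DMSO with GTML3 DMSO RNA, with 51.9% against 41.7%, and in preGTS1 DOX over GTML3 DOX open chromatin it is 27.1% against 17.3%.

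Tnc RNA was 8.22, 8.19 and 8.18 log2 CPM in preGTS1 DOX, 5.07, 5.11 and 4.89 in preGTS1 DMSO, -1.47, -3.46 and -6.16 in GTML3 DOX and -4.03, -1.91 and -6.16 in GTML3 DMSO, where -6.16 is the value of a library with no read. All preGTS1 libraries were far above all GTML3 libraries, which held 5 reads in each group; limma gave log2 difference 9.06 (SE 1.25), adjusted p = 0.00016 for preGTS1 DMSO over GTML3 DMSO. Eya1 RNA was 3.70, 3.60 and 3.62 log2 CPM in preGTS1 DOX, 2.61, 2.38 and 2.03 in preGTS1 DMSO, -3.31, -3.46 and -3.89 in GTML3 DOX and -6.16, -2.83 and -6.16 in GTML3 DMSO. With 2 reads in GTML3 DMSO the ratio of preGTS1 DMSO to it was 125.8 (95% interval 34.6 to 1043, counting error only). E130114P18Rik had 639 reads in preGTS1 DMSO and 1 read in GTML3 DMSO.

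Pard3 and Tcf4 were expressed in both lines and differed less. Pard3 RNA was 7.62, 7.64 and 7.66 log2 CPM in preGTS1 DOX, 7, 7.06 and 7.01 in preGTS1 DMSO, 6.48, 6.23 and 6.29 in GTML3 DOX and 6.57, 6.59 and 6.67 in GTML3 DMSO (log2 difference 0.41 (SE 0.0748), adjusted p = 0.000159 for the lines under DMSO). Tcf4 was 8.79, 8.78 and 8.85 in preGTS1 DOX, 7.91, 7.91 and 7.76 in preGTS1 DMSO, 6.76, 6.57 and 6.70 in GTML3 DOX and 7.32, 7.31 and 7.31 in GTML3 DMSO, also higher in preGTS1 under DMSO (log2 difference 0.55 (SE 0.0736), adjusted p = 8.26e-06). Clmn, whose regions were high in GTS2, was lower in preGTS1 than in GTML3 (log2 difference -2.39 (SE 0.251), adjusted p = 5.66e-07). Klf12 was higher (log2 difference 4.23 (SE 0.802), adjusted p = 0.000275) at 68 reads in preGTS1 DMSO and 4 in GTML3 DMSO, Fos (log2 difference 1.17 (SE 0.266), adjusted p = 0.00118) and Mbnl1 (log2 difference 0.35 (SE 0.092), adjusted p = 0.00348) were higher, and Ctif did not pass (log2 difference -0.14 (SE 0.135), adjusted p = 0.362).

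**Figure D5:**
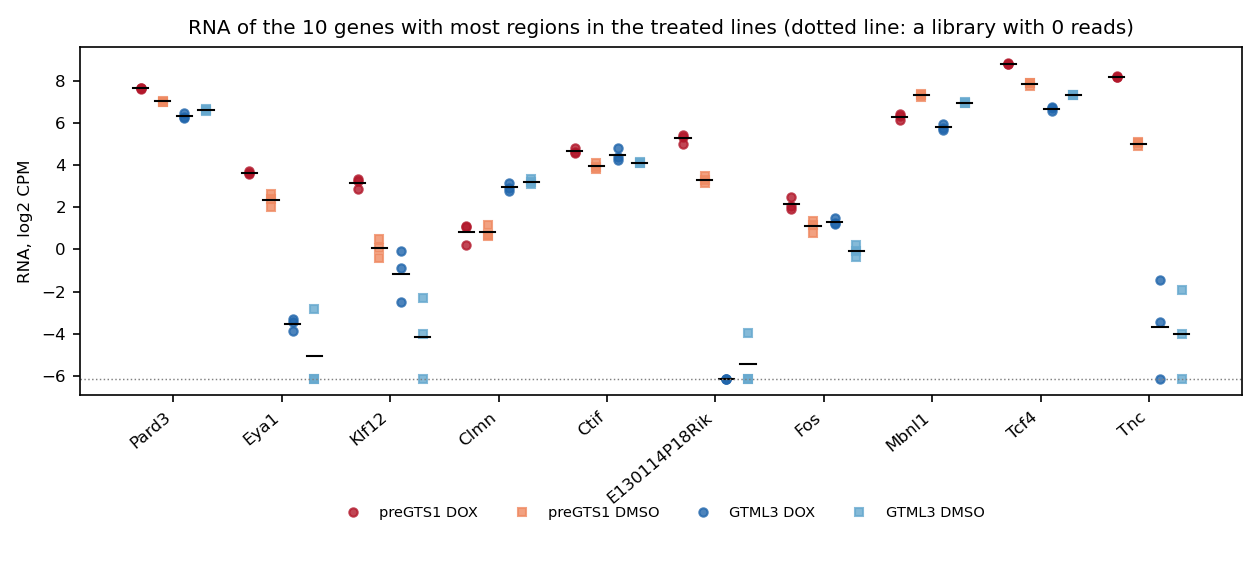
RNA of the 10 genes with most regions in log2 CPM: each point is a library (3 per group), each bar a group mean, and the dotted line marks a library with no read. Tnc, Eya1 and E130114P18Rik are higher in preGTS1 and at or near no read in GTML3 DMSO, Klf12 is low in both lines under DMSO, and Clmn is lower in preGTS1 DMSO than in GTML3 DMSO.

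Among genes with at least 2 regions, the 6 with the largest excess in preGTS1 had at most 3 reads in GTML3 DMSO. Kcnj3, a potassium channel of the GIRK family, had 2478 reads in preGTS1 DMSO and none in GTML3 DMSO, at least 631.8-fold higher. Mt1, a metallothionein, had 2607 reads and none, at least 664.7-fold higher, and Terc, the telomerase RNA, 5867 reads and none, at least 1496-fold higher, each against 3 reads over the group. Gas6, a ligand of TAM receptors, had 6815 reads in preGTS1 DMSO and 3 in GTML3 DMSO, a ratio of 1738 (95% interval 594 to 8428). Gli3, a hedgehog transcription factor, had 1361 reads and 1, and Pdzrn3, a ubiquitin ligase, 1413 reads and 1. On the lower side stood Rprl1 (log2 difference -8.47 (SE 0.441), adjusted p = 5.23e-09), Casz1, a zinc-finger transcription factor (log2 difference -4.16 (SE 0.157), adjusted p = 5.03e-12), the potassium channels Kcnh7 (log2 difference -2.98 (SE 0.18), adjusted p = 1.06e-09) and Kcnk12 (log2 difference -2.68 (SE 0.587), adjusted p = 0.000844), and Fhod3, an actin formin (log2 difference -2.30 (SE 0.068), adjusted p = 2.7e-13).

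Under DOX, 569 of the 1256 genes (45.3%) were higher and 344 (27.4%) lower than under DMSO in preGTS1, against 43% and 30.2% of genes nearest to any distal region. In GTML3 it was 535 (42.6%) and 353 (28.1%), against 41.8% and 29.2%. These shares are near those of genes nearest to any distal region. Over all genes 34.5% were higher and 33.7% lower in preGTS1, and 34.5% and 31.4% in GTML3. Genes with 3 or more regions were higher under DOX in 51 of 85 in preGTS1 (60%) and in 44 of 85 in GTML3 (51.8%). This class too was not set against genes with as many distal regions of any kind. Tnc (log2 difference 3.17 (SE 1.25), adjusted p = 0.0471), Klf12 (log2 difference 3.09 (SE 0.802), adjusted p = 0.0031), E130114P18Rik (log2 difference 1.95 (SE 0.56), adjusted p = 0.00594), Fos (log2 difference 1.07 (SE 0.266), adjusted p = 0.00221), Tcf4 (log2 difference 0.95 (SE 0.0736), adjusted p = 1.24e-08), Ctif (log2 difference 0.72 (SE 0.135), adjusted p = 0.000189) and Pard3 (log2 difference 0.62 (SE 0.0748), adjusted p = 2.09e-06) rose in preGTS1, and Mbnl1 fell (log2 difference -1.01 (SE 0.092), adjusted p = 7.81e-08). Eya1 (log2 difference 1.30 (SE 0.704), adjusted p = 0.113) and Clmn (log2 difference -0.01 (SE 0.251), adjusted p = 0.969) did not pass. None of the 64 regions of these 10 genes passed the limma test for DOX in preGTS1 (1 higher and 8 lower at an unadjusted p below 0.05); by edgeR 19 were lower and 1 was higher.

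In tumors few of the nearest genes passed the test. With a term for the 2 batches named in the columns, limma called 1 of 1477 genes higher in GTS than in GTML and 0 lower, against 0.0865% and 0% of genes nearest to any distal region and 0.0509% and 0.00637% of all genes. That gene was Crb1, a polarity gene of the Crumbs family with 2 regions: between 6.89 and 8.72 (median 7.48) log2 CPM in the 6 GTS tumors and between 2.89 and 5.87 (median 4.05) in the 8 GTML tumors (log2 difference 3.47 (SE 0.471), adjusted p = 0.0174). All 6 GTS tumors were above all 8 GTML tumors, and the difference was 2.86 within the batch of 2 GTS and 6 GTML tumors and 4.16 within the batch of 4 GTS and 2 GTML tumors. In the treated lines Crb1 was lower in preGTS1 than in GTML3 under DMSO (log2 difference -1.66 (SE 0.346), adjusted p = 0.000576). At an unadjusted p below 0.05, 222 of the 1477 genes (15%) were higher and 103 (6.97%) lower, against 12.1% and 8.56% of genes nearest to any distal region and 10.7% and 8.81% of all genes. Without the batch term 85 of the genes (5.76%) were higher and 30 (2.03%) lower, against 4.54% and 2.02% of genes nearest to any distal region and 3.92% and 1.96% of all genes. Without GTS tumor 2 the batch-term calls were 49 higher and 19 lower, and without GTS tumor 3 they were 31 and 13; Crb1 was lost without GTML tumor 7 or 8 or GTS tumor 1 or 5.

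Eya1 was between 3.76 and 7.65 (median 5.62) log2 CPM in the 6 GTS tumors and between -0.23 and 3.56 (median 2.19) in the 8 GTML tumors, with every GTS tumor above every GTML tumor (log2 difference 3.61 (SE 0.868), adjusted p = 0.0771). Etv1 was between 2.71 and 7.83 (median 4.41) log2 CPM in the 6 GTS tumors and between 0.41 and 3 (median 1.31) in the 8 GTML tumors (log2 difference 3.41 (SE 0.93), adjusted p = 0.0965), with 4 of 6 GTS tumors above all GTML tumors. Neither passed with the batch term. Among the other genes with most regions, Tnc was between 5.89 and 10.34 (median 7.27) log2 CPM in the 6 GTS tumors and between 5.05 and 7.62 (median 5.82) in the 8 GTML tumors (log2 difference 1.60 (SE 0.655), adjusted p = 0.212) and Pard3 was between 6.64 and 8.02 (median 7.29) log2 CPM in the 6 GTS tumors and between 7.28 and 8.49 (median 7.81) in the 8 GTML tumors (log2 difference -0.49 (SE 0.268), adjusted p = 0.318); their groups overlapped. The remaining largest differences, none past the threshold, were Ddit4l, Pik3cg, Anks1b, Mctp2 and Nav3 (log2 differences 3.03, 2.87, 2.78, 2.72 and 2.64) on the higher side and Rad51b, Spata13, Gli3, Gas1, Actl7b, Cep192, Ankrd33b and Adcy2 (-2.45, -2.29, -2.01, -1.96, -1.91, -1.78, -1.64 and -1.62) on the lower. The summed level of the 14 microglia and macrophage markers was 282 to 762 CPM in GTS tumors and 150 to 695 CPM in GTML tumors, and that of the 10 oligodendrocyte-lineage markers 153 to 676 CPM and 86.6 to 496 CPM; none of these markers passed the test (3 of 14 and 2 of 10 were higher at an unadjusted p below 0.05), and their part in the gene differences was not tested.

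Lists of genes chosen for this tissue held the regions unevenly. AP-1 and immediate early factors had 11 of their 51 distal regions (21.6%) among the opened ones, 6 at Fos, 2 at Jun, 2 at Junb and 1 at Egr2. The share was 19.1% (9 of 47) for MYC and growth genes, 17% (8 of 47) for tuft-cell genes, 14.6% (13 of 89) for SOX9 and astroglial genes, 8.89% (12 of 135) for neuronal differentiation genes, 8.16% (4 of 49) for TGF-beta and mesenchymal genes, 3.57% (1 of 28) for photoreceptor genes and 2.15% (2 of 93) for neural patterning factors. Over all distal regions it was 10.73%. These shares describe the choice made by the rule and carry no test. In the limma test of preGTS1 DOX over GTML3 DOX, which called 27.1% of the 2618 regions and 17.3% of all distal regions higher, the higher calls were 5 of 11 in the AP-1 set, 5 of 9 in the MYC set and 3 of 8 in the tuft-cell set. They were 7 of 13 in the astroglial set, 7 of 12 in the neuronal set, 1 of 2 in the patterning set and the single photoreceptor region. Tnc alone gave 5 of the 7 higher calls in the astroglial set, and Fos alone gave 4 of the 5 in the AP-1 set. In the astroglial set 1 region was lower, and in the TGF-beta set 0 of 4 were higher by limma and 1 at an unadjusted p below 0.05.

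Within the astroglial list the regions lay at Tnc (6), the nuclear factors Nfia (2) and Nfib (2), the glycolytic enzyme Aldoc (1), the receptor Notch2 (1) and the glutamate transporter Slc1a2 (1); Sox9 itself had none. Of 25 astroglial genes in the line RNA, 21 were higher and 4 lower in preGTS1 than in GTML3 under DMSO (median log2 difference 2.73, against 0.13 over all genes), and in tumors 0 of 28 passed by limma (9 higher and 1 lower at an unadjusted p below 0.05). The Aldoc region 1268 bases from its start had 22.3 and 20.6 CPM in GTS1 and 43.9 and 33.2 in GTS2. preGTS1 had 4.25 and 4.79 CPM under DOX and 6.66 and 3.99 under DMSO, and GTML3 had 5.16 and 9.67 under DOX and 4 and 8.98 under DMSO. Both GTS sources were above all other libraries. Aldoc RNA was between 5.32 and 8.56 (median 6.63) log2 CPM in the 6 GTS tumors and between 2.71 and 5.84 (median 4.34) in the 8 GTML tumors (log2 difference 2.17 (SE 0.616), adjusted p = 0.105). The Notch2 region 29761 bases away had 16.8 and 19.7 CPM in GTS1 and 4.22 and 6.03 in GTS2. preGTS1 had 7.45 and 10.6 CPM under DOX and 9.61 and 10.8 under DMSO, and GTML3 had 5.16 and 0 under DOX and 1.72 and 0.599 under DMSO, and GTS1 was highest.

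The single Slc1a2 region (50224 bases away, chr2:102495907-102496834) had 309 and 344 CPM in GTS1 and 1124 and 1225 in GTS2. preGTS1 had 72.5 and 69.9 CPM under DOX and 73.3 and 82.2 under DMSO, and GTML3 had 182 and 158 under DOX and 154 and 165 under DMSO. It lay close to the threshold in GTS1, and it was lower in preGTS1 DOX than in GTML3 DOX (log2 difference -1.24 (SE 0.0949), adjusted p = 3.39e-07). Slc1a2 sequence drives the transactivator of the GTML model, and whether transgene copies add reads there was not tested. Slc1a2 RNA was also lower in preGTS1 than in GTML3 under DMSO (log2 difference -0.71 (SE 0.109), adjusted p = 3.37e-05) and rose under DOX in preGTS1 (log2 difference 2.26 (SE 0.109), adjusted p = 4.35e-11) and in GTML3 (log2 difference 2.38 (SE 0.109), adjusted p = 3.43e-11).

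Mycn, the oncogene of the model, had 2 opened regions. The one 64003 bases away (chr12:12884167-12885112) had 49.5 and 45.1 CPM in GTS1, 58.2 and 70.6 in GTS2, 10.6 and 11.3 in preGTS1 DOX, 24.6 and 19.6 in preGTS1 DMSO, 7.23 and 10.9 in GTML3 DOX and 9.15 and 18 in GTML3 DMSO, and the one 131524 bases away (chr12:12816874-12817363) had 13.5 and 11 CPM in GTS1, 17.7 and 17.5 in GTS2, 1.22 and 1.03 in preGTS1 DOX, 1.77 and 1.67 in preGTS1 DMSO, 0 and 0 in GTML3 DOX and 0.572 and 0 in GTML3 DMSO. Both were high in the GTS sources and near GTML3 in preGTS1 DOX; neither passed for DOX in preGTS1 by limma (adjusted p = 0.0906 and 0.769), and the first was lower by edgeR (adjusted p = 1.82e-05). Mycn RNA was 5.54, 6.13 and 5.65 log2 CPM in preGTS1 DOX, 10.54, 10.45 and 10.91 in preGTS1 DMSO, 4.93, 5.07 and 4.80 in GTML3 DOX and 8.69, 8.48 and 8.42 in GTML3 DMSO, so it fell under DOX in both lines; reads of the gene and of a MYCN transgene cannot be told apart. Neither Myc nor Mgmt had an opened region. Also on this list were Mxi1 (2 regions) and, with 1 each, Ccnd1, Ccnd2, Cdk6, Cdkn1a and Trp53.

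Tuft-cell genes, which mark a chemosensory epithelial cell, had 8 regions at 7 genes: Ptgs1 (2), Alox5ap, Gfi1b, Il17rb, Krt18, Plcb2 and Sh2d6. The Krt18 region 11225 bases away had 4 and 2.4 CPM in GTS1, 64.1 and 67.6 in GTS2, 1.67 and 1.54 in preGTS1 DOX, 1.03 and 1.03 in preGTS1 DMSO, 0 and 3.63 in GTML3 DOX and 1.14 and 0 in GTML3 DMSO, and the Alox5ap region 9140 bases away had 3.25 and 1.44 CPM in GTS1, 46.4 and 62.1 in GTS2, 1.22 and 0.684 in preGTS1 DOX, 1.77 and 1.42 in preGTS1 DMSO, 2.06 and 2.42 in GTML3 DOX and 0 and 0.599 in GTML3 DMSO; both were high in GTS2 only. All 8 tuft-cell regions were found in the GFP table. The Alox5ap region was higher in GFP than in nonGFP (log2 difference 0.84 (SE 0.148), adjusted p = 5.36e-06). The other 7 did not pass, with log2 differences between -0.23 and 0.26. In tumors 1 of 15 list genes, Cadps2, passed with the batch term and 7 passed without it; Cadps2 has no opened region, and the list median was 2.7 log2 against -0.075 over all genes. Plcb2, a phospholipase C of taste signalling, was between 4.45 and 9.02 (median 6.84) log2 CPM in the 6 GTS tumors and between 0.89 and 5.37 (median 3.68) in the 8 GTML tumors (log2 difference 3.43 (SE 1), adjusted p = 0.112). Alox5ap, which hands arachidonate to 5-lipoxygenase, was between 1.58 and 5.79 (median 2.80) log2 CPM in the 6 GTS tumors and between -1.10 and 1.21 (median 0.22) in the 8 GTML tumors (log2 difference 2.89 (SE 0.701), adjusted p = 0.0774), with all GTS tumors above all GTML tumors.

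In the neuronal list the regions included those at Sema6d (4), the synaptic adhesion gene Nrxn3 (1), Nav3 (2) and the synaptic vesicle gene Syt1 (2), and 17 of its genes also had regions that were closed in both sources, 56 in all. The Nav3 region 112695 bases away had 2.5 and 2.4 CPM in GTS1 and 55.7 and 60.9 in GTS2. preGTS1 had 0.608 and 0.342 CPM under DOX and 1.03 and 0.643 under DMSO, and GTML3 had 2.06 and 0 under DOX and 0 and 0 under DMSO. It was high in GTS2 only. Of 24 list genes, 12 were higher and 11 lower in preGTS1 than in GTML3 under DMSO. The single photoreceptor region, 37696 bases from Otx2, a transcription factor of photoreceptor and cerebellar progenitors, had 21.5 and 18.7 CPM in GTS1 and 6.75 and 1.81 in GTS2. preGTS1 had 17.9 and 10.8 CPM under DOX and 19.7 and 21.5 under DMSO, and GTML3 had 4.13 and 3.63 under DOX and 1.14 and 1.8 under DMSO. Otx2 RNA was between -0.41 and 8.66 (median 4.23) log2 CPM in the 6 GTS tumors and between 6.26 and 8.76 (median 8.21) in the 8 GTML tumors (log2 difference -3.48 (SE 1.19), adjusted p = 0.158). At Jun, the region 81834 bases away had 24 and 17.3 CPM in GTS1 and 21.9 and 9.05 in GTS2. preGTS1 had 1.98 and 1.37 CPM under DOX and 0.444 and 1.03 under DMSO, and GTML3 had 2.06 and 0 under DOX and 0.572 and 0.599 under DMSO. It was high in GTS1 and GTS2 and low in both lines. The Tgfb3 region 105297 bases away, near a TGF-beta ligand gene, had 47.8 and 38.9 CPM in GTS1 and 33.7 and 38 in GTS2. preGTS1 had 2.13 and 3.59 CPM under DOX and 1.18 and 2.06 under DMSO, and GTML3 had 2.06 and 0 under DOX and 1.72 and 1.2 under DMSO, the same order.

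Marker genes of other cells were nearest to 48 distal regions, of which 4 (8.33%) were opened ones, against 10.73% of all distal regions. None lay nearest to a gene of the microglia and macrophage, lymphocyte, mural and fibroblast or ependymal lists. Tek, an endothelial receptor, had 2 of the 11 distal regions of its list (18.2%), Olig1, an oligodendrocyte-lineage factor, had 1 of 17, and Klf1, an erythroid factor, had the 1 distal region of its list. The Tek region 13393 bases away had 32.8 and 30.7 CPM in GTS1, 116 and 127 in GTS2, 8.05 and 8.04 in preGTS1 DOX, 14.5 and 20.8 in preGTS1 DMSO, 9.29 and 15.7 in GTML3 DOX and 9.72 and 10.2 in GTML3 DMSO, and the Olig1 region had 8.76 and 5.28 CPM in GTS1, 32.9 and 32 in GTS2, 0.76 and 0.171 in preGTS1 DOX, 0.444 and 1.03 in preGTS1 DMSO, 0 and 0 in GTML3 DOX and 1.72 and 2.99 in GTML3 DMSO; GTS2 was highest in both.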

How the data were processed

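ATAC values are CPM (reads scaled to each library's total in the listed regions), as deposited by the authors, and RNA values are log2 CPM, as deposited. The submitters' processing notes name Bowtie2 2.2, MACS2, STAR 2.4.0, Subread 1.5.2, edgeR and limma and the builds mm9 and mm10, with no role for each. Members and gene lists were chosen with earlier results of these data known.

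limma 3.58.1 (trend, robust) was fitted over all regions or genes, for ATAC on log2(CPM + 1), with a call at a Benjamini-Hochberg adjusted p below 0.05. Tumor RNA had a batch term, although the deposited values already had the batch means removed (largest coefficient 1.8e-14). Whole reads came back from 100% of the ATAC CPM values (tolerance 0.1) and were tested with edgeR 4.0.16 (quasi-likelihood, TMM). Regions of the GFP table were matched by 50% overlap of the shorter one. Ratio intervals and read floors (95%, 3 reads) cover counting error only. RNA libraries held 10.861 to 24.672 M reads. Single-cell tables were not used. Some genes of the lists are not reported here. Tests were checked on simulated data.

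Regions and genes were named by rank: the 20 largest shared openings, the 10 genes with most regions, the 6 extremes by DOX and by preGTS1 level, list members, RNA extremes among genes with 2 or more regions, the threshold's neighbours and the 4 GFP extremes each way.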

Additional observations from a re-analysis of the deposited data

Results flagged for a closer look

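In 3 of 32 groups of tumors checked for genes named above, 1 GTML tumor stood far from the others; about 1 in 20 groups does so by chance. Ctif RNA was 7.89 log2 CPM in GTML tumor 3, and the next highest was 4.77, a gap of 0.648 of the group's range. Fos RNA was -1.33 in GTML tumor 5, and the next lowest was 3.29, a gap of 0.582 of the range. Mbnl1 RNA was 8.33 in GTML tumor 8, and the next highest was 7.53, a gap of 0.656 of the range.

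For 10 of 18 genes checked, the DOX response of RNA differed between preGTS1 and GTML3 in the limma interaction term, which also passed for 42.2% of all genes. Among the genes with most regions, the log2 response of Pard3 was 0.62 in preGTS1 and -0.28 in GTML3 (difference 0.89, adjusted p = 9.37e-06), and that of Tcf4 was 0.95 and -0.64 (difference 1.58, adjusted p = 2.3e-08). E130114P18Rik responded by 1.95 in preGTS1 and by -0.73 in GTML3 (difference 2.68, adjusted p = 0.0133), where it had 0 reads under DOX and 1 under DMSO.

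Nav3 responded by 2.18 in preGTS1 and by -4.43 in GTML3 (difference 6.61, adjusted p = 0.0001), with 3 GTML3 reads under DOX and 69 under DMSO. Sema6d responded by 3.32 and -2.30 (difference 5.62, adjusted p = 0.000466), with 0 GTML3 reads under DOX and 6 under DMSO, which gives only at least 1.39-fold lower. Olig1 responded by 2.65 in preGTS1 and by -1.55 in GTML3 (difference 4.20, adjusted p = 0.000519), with 0 GTML3 reads under DOX and 2 under DMSO. Notch2 responded by 0.50 and -1.45 (difference 1.95, adjusted p = 8.96e-08) and Ccnd1 by -0.24 and -2.27 (difference 2.03, adjusted p = 1.73e-05). Jun rose in both lines, by 2.18 in preGTS1 and 1.61 in GTML3 (difference 0.57, adjusted p = 0.00167), and Mycn fell in both, with responses of -4.86 in preGTS1 and -3.59 in GTML3 (difference -1.27, adjusted p = 0.000324).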

How the results depend on the processing

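No named difference changed sign under an alternative, but calls were lost under at least 1 for 30 of 59 named regions between preGTS1 DOX and GTML3 DOX, 9 of 15 between GFP and nonGFP, all 13 for DOX in preGTS1, 4 of 58, 5 of 50 and 4 of 41 line RNA results and the 1 tumor gene. DOX calls in preGTS1 were near even in limma, mostly lower by edgeR and mostly higher with median-centring (62 and 37). Called higher and lower, the regions compared between preGTS1 DOX and DMSO numbered 209 and 430 by edgeR with DESeq2 size factors, 192 and 457 with TMM, 27 and 18 with a pseudocount of 0.5, 114 and 193 with 5, and 26 and 43 with the CPM minimum over the 6 GTS and GTML3 DMSO libraries; leaving out 1 library gave 10 to 11 and 0 to 3. Between preGTS1 DOX and GTML3 DOX, median-centring gave 51 lower, and leaving out 1 library gave 342 to 758 higher and 7 to 68 lower. Between GFP and nonGFP, edgeR gave 59 lower with either scaling, a 2-fold minimum 30 higher and 0 lower, and leaving out 1 library 58 to 103 and 4 to 34. Between GTS and GTML tumors, genes called higher numbered 2 on log2(CPM + 1), 3 with median-centring, 2 counting both named genes, 85 without the batch term (30 lower) and, leaving out 1 tumor, 0 to 49 (0 to 19 lower). Counting both named genes, line RNA calls were 1078 and 578 for preGTS1 over GTML3, 950 and 630 for DOX in preGTS1, and 924 and 612 for DOX in GTML3. With 1 library per group, 135 to 142 regions were at least 2 times lower in preGTS1 DMSO than in GTML3 DMSO and 908 to 983 in GTML3 DOX than in GTML3 DMSO; this, the 6-library minimum and the subset above the read floor were chosen after seeing the data, and counts in that subset stayed within 1.5 times.

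Median-centring shifted log2 differences by 0.112 for DOX in preGTS1 ATAC, -0.245 for preGTS1 over GTML3 under DOX, 0.105 in tumors and -0.108 for the lines' RNA under DMSO. Libraries sharing a number did not deviate together (correlations 0.00175 to 0.00837 in ATAC, -0.154 to 0.0684 in RNA). With a replicate block the calls higher and lower were 47 and 42 for DOX in preGTS1 ATAC, 713 and 21 for preGTS1 over GTML3 under DOX, 134 and 40 for GFP, 639 and 309 for the lines' RNA, 561 and 339 for DOX in preGTS1 RNA and 522 and 348 in GTML3 RNA. The median region rests on 4 reads in GTML3 under either treatment: the rule chose a low level under DMSO, and the DOX libraries were the shallowest.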
